A study of Arabidopsis thaliana with 9 samples.

Results

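The light-harvesting and photosystem genes of the Arabidopsis nucleus were taken as a list of 42 loci, out of 33278 loci in the deposited RNA-seq table. The list was read by locus identifier and holds 14 LHCB genes (antenna of photosystem II), 6 LHCA genes (antenna of photosystem I), 12 PSA genes (subunits of photosystem I) and 10 PSB genes (subunits of photosystem II). All 42 were in the table, and all 42 passed the filter on low values (at least 1 FPKM in at least 2 of 4 libraries). FPKM counts sequenced fragments per unit of transcript length and of mapped fragments in the library, so levels of different genes can be set side by side.

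Oxygenic photosynthesis runs on photosystems II and I of the chloroplast thylakoid. Each has a core whose chlorophyll-binding reaction centre proteins are encoded by the plastid genome, while the antenna proteins and many peripheral subunits are encoded in the nucleus and imported. LHCB and LHCA proteins bind chlorophyll a and b and pass excitation energy to the core. Their nuclear genes are among the most strongly transcribed of green tissue and respond to light and to signals from the plastid.

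RNA was compared between seedlings labelled as hd2b hd2c double mutants and wild-type Columbia-0 seedlings, both at day 6, with 2 libraries per genotype. The plants grew on soil at 21 degrees in continuous light. HD2B and HD2C are plant-specific histone deacetylases that are largely nucleolar, and the comparison asks which transcripts differ when both genes are mutated. The labels give neither the alleles nor the mutants' ecotype, nor how many plants went into a library. Separate growth of the plants behind the libraries is not stated, and each p-value therefore covers the spread among these 4 libraries alone, which may be technical. The other 5 samples of the series, from 2-week leaves, are not analysed here.

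HD2B (AT5G22650) stood at 24.2 and 24.3 FPKM in the labelled mutant libraries, against 138 and 191 FPKM in wild type (limma log2 change −2.69, SE 0.17, adjusted p = 3.62e-04). The other mutated gene, HD2C (AT5G03740), had 74.7 and 55.8 FPKM in the labelled mutants, against 56.1 and 63.9 FPKM in wild type (log2 change 0.11, SE 0.16, adjusted p = 0.791). The mean of HD2C was thus not lower, and 1 FPKM value for a locus cannot tell a full transcript from a truncated one. For this reason the libraries are called labelled mutants, and directions depend on the labels, with HD2B as the check. The FPKM columns summed to 956002 and 1105981 for the labelled mutants, against 988524 and 992451 for wild type. Sequencing depth is unknown. In every pair of values below, library 1 comes before library 2.

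The antenna and photosystem genes were a large part of the transcript pool. Summed over the 42 genes they made up 12.2% and 14.1% of all FPKM in the labelled mutant libraries, against 16.8% and 15.2% in wild type. Between 36 and 38 of them reached 1000 FPKM in each library, where only 84 to 114 loci of the whole table did. The median member had 2129 and 3040 FPKM in the labelled mutants, against 3226 and 2931 FPKM in wild type. Labelled mutant library 1 was the low library by both measures. Labelled mutant library 2 lay below both wild-type libraries in its share of FPKM and between them in the level of the median member. In plain sums the 42 genes had 116157 and 156241 FPKM in the labelled mutants, against 166446 and 150429 FPKM in wild type. By that sum too, labelled mutant library 2 lay between the wild-type libraries. Its share was lower because its column total of 1105981 FPKM was above both of theirs. At the upper end was LHCB1.3 with 13953 to 20972 FPKM, and at the lower end LHCB4.3 with 13.5 to 20.1 FPKM. LHCA5 and LHCA6 were also low (87.0 to 212 FPKM), and each of the other 39 genes had at least 573 FPKM in every library.

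**Figure D1:**
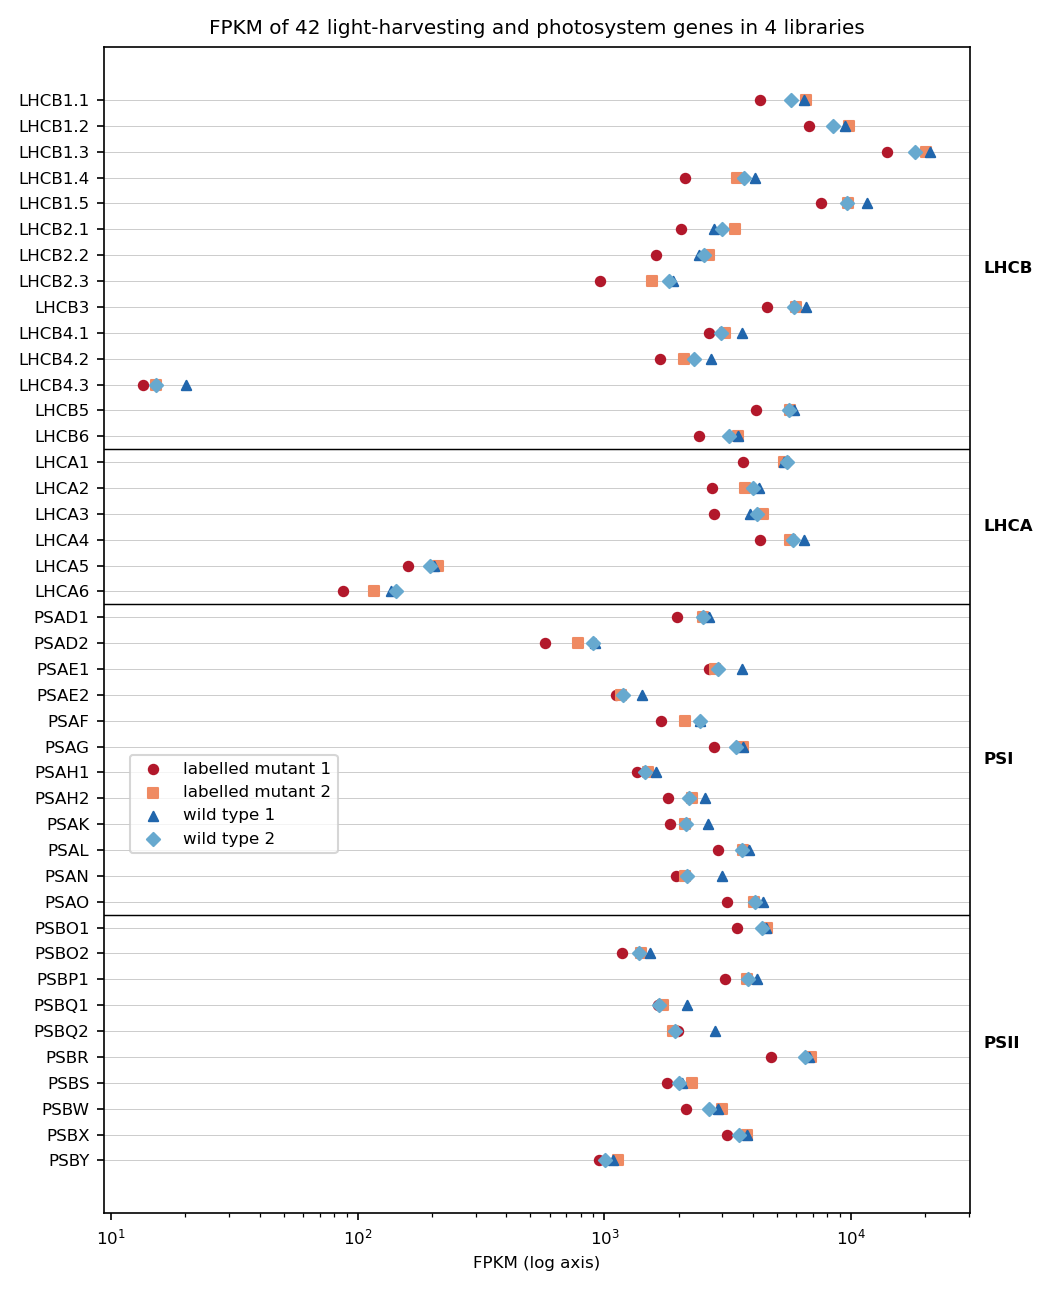
FPKM (log axis) of each of the 42 genes in the 4 libraries, with red circles and orange squares for the labelled mutants and blue triangles and light blue diamonds for wild type. Labelled mutant library 1 is the lowest point in 41 of the 42 rows, while labelled mutant library 2 lies above both wild-type points in 11 rows, below both in 15 and between them in 16.

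All 42 genes had a lower mean log2 level in the labelled mutants (34 of 42 with quantile normalization, 27 of 42 without labelled mutant library 1 and 38 of 42 without wild-type library 1), and none of the 42 passed the threshold. The median log2 change was −0.22 (range −0.60 to −0.01; differences of log2(FPKM + 1), labelled mutant minus wild type), against 0.00 over all 19917 tested loci, of which 49.3% lay below 0. In the limma fit 0 of 42 members were called at an adjusted p of 0.05, where 0.552% of tested loci were called lower and 0.608% higher. The smallest adjusted p among members was 0.211. At an unadjusted limma p of 0.05, 2 of 42 members passed, LHCB2.3 and LHCA6, against 17.2% of tested loci. The labelled mutant and wild-type libraries did not overlap in 14 of 42 members (33.3%), all lower in the labelled mutants. Over all tested loci, 25.1% were lower without overlap and a further 24.2% were higher without overlap.

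The difference was unevenly spread over the libraries. Labelled mutant library 1 was the lowest of the 4 in 41 of 42 members (97.6%), against 30.7% of tested loci. PSBQ2 was the exception, with labelled mutant library 2 lowest. Wild-type library 1 was the highest of the 4 in 28 of 42 members (66.7%), against 18.3% of tested loci. Without it the median log2 change of the 42 genes was −0.13, that of the photosystem I genes −0.11 and that of the photosystem II genes −0.04. Against the mean of the wild-type libraries, the median of the 42 genes was −0.39 in labelled mutant library 1 (all 42 below 0) and −0.05 in labelled mutant library 2 (27 of 42 below 0), on the log2(FPKM + 1) scale. The median over all tested loci was −0.03 and 0.04 in the same libraries. Between the libraries numbered 1 the median of the 42 genes was −0.50, and between those numbered 2 it was 0.02. Crossing the numbers gave −0.34 for labelled mutant library 1 minus wild-type library 2, and −0.12 for labelled mutant library 2 minus wild-type library 1. The median difference between the 2 labelled mutant libraries themselves, −0.38 (library 1 minus library 2), was larger in size than the median log2 change between genotypes. Between the wild-type libraries it was 0.12. In whole seedlings, fewer cells of a type and less RNA per cell cannot be told apart.

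**Figure D2:**
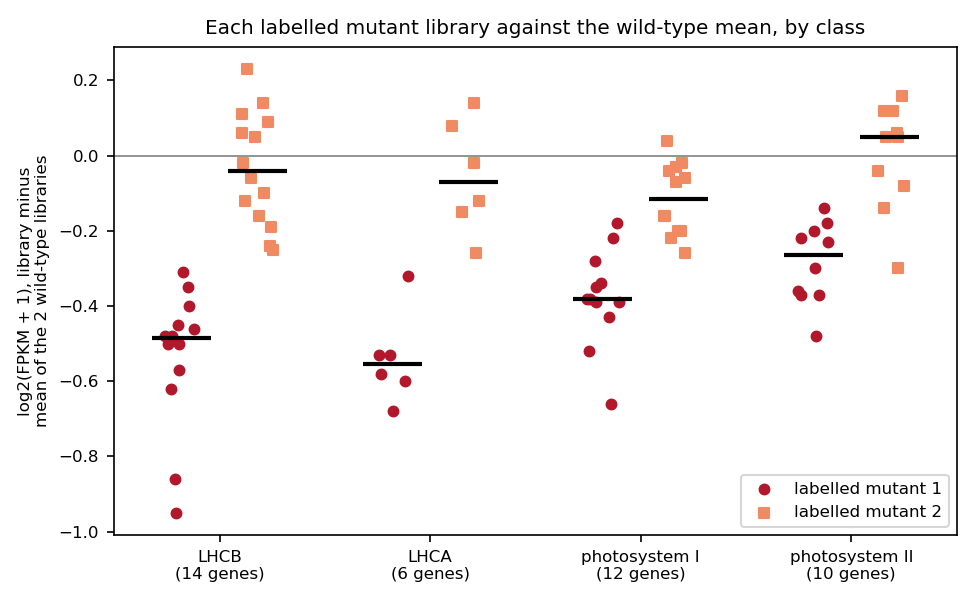
Each point is a gene, plotted as its log2(FPKM + 1) in a labelled mutant library minus the mean of the 2 wild-type libraries, by class (red circles library 1, orange squares library 2; black lines are medians). In library 1 the class medians run from −0.55 for LHCA to −0.27 for photosystem II, and in library 2 from −0.11 for photosystem I to 0.05 for photosystem II.

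LHCB1, LHCB2 and LHCB3 form the trimers of LHCII, the main antenna of photosystem II. LHCB1 has 5 gene copies: LHCB1.2, LHCB1.1 and LHCB1.3 follow each other on chromosome 1, and LHCB1.4 and LHCB1.5 are neighbours on chromosome 2. LHCB1.3 (AT1G29930, CAB1) had 13953 and 20188 FPKM in the labelled mutants, against 20972 and 18087 FPKM in wild type. LHCB1.2 (AT1G29910, CAB3) had 6770 and 9828 FPKM in the labelled mutants, against 9462 and 8428 FPKM in wild type. LHCB1.1 (AT1G29920, CAB2) had 4281 and 6534 FPKM in the labelled mutants, against 6454 and 5687 FPKM in wild type. For these copies of the chromosome 1 cluster labelled mutant library 1 was low and library 2 stood within or above the wild-type range, with log2 changes of −0.21, −0.13 and −0.20 (SE 0.25 to 0.27). In LHCB1.5 (AT2G34420) labelled mutant library 2 lay between the wild-type libraries, with 7519 and 9743 FPKM in the labelled mutants, against 11559 and 9666 FPKM in wild type. LHCB1.4 (AT2G34430) had 2121 and 3451 FPKM in the labelled mutants, against 4058 and 3669 FPKM in wild type. Here both labelled mutant libraries lay below both wild-type libraries, with a log2 change of −0.51 (SE 0.26, 95% interval −1.11 to 0.08, adjusted p = 0.359).

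The LHCB2 copies differed from each other in the same manner. LHCB2 is the LHCII protein whose phosphorylation takes part in state transitions, the shift of antenna between the photosystems. LHCB2.1 (AT2G05100) had 2038 and 3375 FPKM in the labelled mutants, against 2775 and 2998 FPKM in wild type. LHCB2.2 (AT2G05070) had 1611 and 2651 FPKM in the labelled mutants, against 2426 and 2543 FPKM in wild type. In both of these copies the labelled mutant libraries lay on either side of the wild-type pair. LHCB2.3 (AT3G27690) had 959 and 1561 FPKM in the labelled mutants, against 1893 and 1821 FPKM in wild type. Its mean of 1260 ± 426 FPKM in the labelled mutants was 32.2% below the 1857 ± 51.1 FPKM of wild type (SD, n = 2 each), with a log2 change of −0.60 (SE 0.25, 95% interval −1.17 to −0.03, adjusted p = 0.269). LHCB2.3 had the most negative log2 change of the 42 genes.

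LHCB3, the remaining trimer subunit, had 4542 and 5966 FPKM in the labelled mutants, against 6546 and 5888 FPKM in wild type (log2 change −0.25, SE 0.23). The minor antenna proteins LHCB4 (CP29), LHCB5 (CP26) and LHCB6 (CP24) are monomers that link the trimers to the core of photosystem II. LHCB4.2 (AT3G08940) had 1679 and 2104 FPKM in the labelled mutants, against 2698 and 2299 FPKM in wild type. It was the one minor antenna gene whose groups did not overlap (log2 change −0.41, SE 0.20, adjusted p = 0.356). LHCB4.1, LHCB4.3, LHCB5 and LHCB6 had log2 changes of −0.27 to −0.20, and labelled mutant library 2 lay above at least 1 wild-type library in each. By role, the median of the 9 trimer genes was −0.50 in labelled mutant library 1 and 0.05 in library 2, each minus the wild-type mean. The 5 minor antenna genes had medians of −0.46 and −0.10.

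LHCA1 to LHCA4 form the belt of antenna proteins on one side of photosystem I. LHCA1 (AT3G54890) had 3634 and 5362 FPKM in the labelled mutants, against 5335 and 5518 FPKM in wild type. LHCA3 (AT1G61520) had 2783 and 4413 FPKM in the labelled mutants, against 3883 and 4137 FPKM in wild type. Library 1 of the labelled mutants was again far below the other 3 libraries, and the groups overlapped in both genes. LHCA2 (AT3G61470) had 2717 and 3706 FPKM in the labelled mutants, against 4225 and 3993 FPKM in wild type (log2 change −0.37, SE 0.22, adjusted p = 0.435). LHCA4 (AT3G47470) had 4252 and 5650 FPKM in the labelled mutants, against 6442 and 5836 FPKM in wild type (log2 change −0.32, SE 0.23, adjusted p = 0.513). In LHCA2 and LHCA4 the groups did not overlap.

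LHCA5 and LHCA6 are minor antenna proteins that join photosystem I to the chloroplast NADH dehydrogenase-like complex, and both were far below LHCA1 to LHCA4 in level. LHCA6 (AT1G19150) had 87.0 and 116 FPKM in the labelled mutants, against 136 and 143 FPKM in wild type. Its mean was 102 ± 20.5 FPKM in the labelled mutants and 140 ± 4.93 FPKM in wild type (SD, n = 2 each), 27.3% lower, with the smallest p of the 42 genes (log2 change −0.47, SE 0.16, 95% interval −0.85 to −0.09, adjusted p = 0.211). LHCA5 (AT1G45474) had 160 and 212 FPKM in the labelled mutants, against 204 and 197 FPKM in wild type, and its groups overlapped (log2 change −0.12, SE 0.17). The interval of LHCA6 lay below 0 before adjustment over the 19917 loci, and that of LHCA5 spanned 0 (−0.51 to 0.27).

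Among photosystem I subunits, PSAD and PSAE sit on the stromal side, where ferredoxin docks, and each has 2 gene copies. PSAD2 (AT1G03130) had 573 and 780 FPKM in the labelled mutants, against 917 and 898 FPKM in wild type (log2 change −0.44, SE 0.19, adjusted p = 0.296). The other copy, PSAD1, had 1974 and 2517 FPKM in the labelled mutants, against 2664 and 2500 FPKM in wild type, and its groups overlapped. PSAF and PSAN are subunits of the lumenal side, where plastocyanin docks. PSAF (AT1G31330) had 1693 and 2114 FPKM in the labelled mutants, against 2429 and 2434 FPKM in wild type (log2 change −0.36, SE 0.19, adjusted p = 0.389). PSAN (AT5G64040) had 1945 and 2116 FPKM in the labelled mutants, against 2982 and 2156 FPKM in wild type (log2 change −0.32, SE 0.22, adjusted p = 0.493). For PSAN the high value of wild-type library 1 set most of the difference, since wild-type library 2 stood close to both labelled mutants.

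PSAH, PSAL and PSAO lie where LHCII docks to photosystem I during state transitions, and PSAG and PSAK flank the antenna belt. PSAO (AT1G08380) had 3148 and 4036 FPKM in the labelled mutants, against 4393 and 4068 FPKM in wild type. PSAL (AT4G12800) had 2873 and 3651 FPKM in the labelled mutants, against 3867 and 3616 FPKM in wild type. PSAG (AT1G55670) had 2785 and 3628 FPKM in the labelled mutants, against 3650 and 3403 FPKM in wild type. Their log2 changes of −0.25, −0.21 and −0.15 (SE 0.21 each) had 95% intervals that spanned 0. Over the 12 photosystem I genes the median was −0.23, and 7 of the 12 had groups that did not overlap, against 3 of 14 LHCB, 3 of 6 LHCA and 1 of 10 photosystem II genes, where 25.1% of tested loci were lower without overlap. The LHCB count (21.4%) and the photosystem II count lay below that share. Several photosystem I genes separated only narrowly. In PSAE1, PSAE2, PSAK, PSAN and PSAO labelled mutant library 2 minus wild-type library 2 was −0.04 to −0.01 in log2. In PSAD2 and PSAF it was −0.20. The photosystem II gene without overlap, PSBP1, was also a near tie (−0.01). The difference between classes was not tested, since the genes share their libraries.

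PSBO, PSBP and PSBQ form the extrinsic part of the oxygen-evolving complex, which stabilises the manganese cluster that splits water. PSBO1 (AT5G66570) had 3443 and 4573 FPKM in the labelled mutants, against 4518 and 4339 FPKM in wild type. PSBP1 (AT1G06680) had 3073 and 3768 FPKM in the labelled mutants, against 4147 and 3803 FPKM in wild type, and was the single photosystem II gene whose groups did not overlap (log2 change −0.22, SE 0.21). PSBQ2 (AT4G05180) had 1982 and 1890 FPKM in the labelled mutants, against 2819 and 1929 FPKM in wild type. The labelled mutant libraries agreed closely for PSBQ2 and the wild-type libraries did not. Its copy PSBQ1 had a wild-type library 1 of 2155 FPKM above 3 libraries of 1648 to 1724 FPKM. PSBO2, the minor copy of PSBO, had a log2 change of −0.17 (SE 0.18).

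PSBR, a small lumenal subunit needed for stable binding of PSBP and PSBQ, had 4745 and 6888 FPKM in the labelled mutants, against 6721 and 6486 FPKM in wild type. PSBS (AT1G44575, NPQ4), which switches the antenna of photosystem II to heat dissipation in excess light, had 1796 and 2273 FPKM in the labelled mutants, against 2064 and 2012 FPKM in wild type. Its log2 change of −0.01 (SE 0.20, 95% interval −0.46 to 0.44) came from labelled mutant libraries on either side of wild type. The small membrane subunits PSBW, PSBX and PSBY had log2 changes of −0.12, −0.08 and −0.01, and in PSBW and PSBY labelled mutant library 2 was the highest of the 4. Over the 10 photosystem II genes the median was −0.16. It was −0.27 in labelled mutant library 1 and 0.05 in library 2, each minus the wild-type mean.

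Set by class, the antenna genes were further down than the photosystem subunits in labelled mutant library 1 and not in library 2. The 20 antenna genes had medians of −0.50 in library 1 and −0.04 in library 2, each minus the wild-type mean, and the 22 photosystem subunits had −0.36 and −0.05. Summed FPKM of the antenna over summed FPKM of the photosystem subunits was 1.43 and 1.64 in the labelled mutants, against 1.58 and 1.61 in wild type. This ratio is free of library scaling, and the groups overlapped. The ratio of LHCB to photosystem II genes was 2.27 and 2.55 in the labelled mutants, against 2.58 and 2.53 in wild type, and again overlapped. The ratio of photosystem I to photosystem II genes was 0.987 and 0.942 in the labelled mutants, against 1.03 and 1.01 in wild type, without overlap. With 2 libraries against 2, a two-sided exact permutation test of any single ratio cannot give a p under 0.333. Across the 42 genes, the log2 change was hardly related to the mean level (Pearson's r 0.11, Spearman's rho −0.00, a description over genes that share 4 libraries), and the order of the genes by level in labelled mutant library 1 was close to that in wild type (Spearman's rho 0.98).

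The balance between gene copies within a family does not depend on library scaling either. For some copies labelled mutant library 2 went with library 1 in this balance. The shares of LHCB1.1, LHCB1.5, LHCB4.3 and of both copies of PSBO and of PSBQ overlapped between the genotypes. LHCB2.3 supplied 20.8% and 20.6% of the summed LHCB2 FPKM in the labelled mutants, against 26.7% and 24.7% in wild type. LHCB2.1 supplied 44.2% and 44.5% in the labelled mutants, against 39.1% and 40.7% in wild type. In LHCB1, the share of LHCB1.4 was 6.12% and 6.94% in the labelled mutants, against 7.73% and 8.06% in wild type. These shares differed between genotypes by more than the spread between replicates (20.7 ± 0.16% against 25.7 ± 1.4% for LHCB2.3, and 6.53 ± 0.58% against 7.89 ± 0.23% for LHCB1.4, SD, n = 2 each). The exact permutation test cannot go below 0.333 here.

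Some copies of other families differed in share as well. LHCB4.2 supplied 38.7% and 40.5% of LHCB4 FPKM in the labelled mutants, against 42.6% and 43.4% in wild type. PSAD2 supplied 22.5% and 23.7% of PSAD FPKM in the labelled mutants, against 25.6% and 26.4% in wild type. For both genes the labelled mutant libraries lay below the wild-type libraries. In the PSBO family the share of PSBO2 was 25.5% and 23.6% in the labelled mutants, against 25.2% and 24.1% in wild type, with overlap. LHCB1.4, LHCB2.3, LHCB4.2 and PSAD2 were picked out after their values were seen, and shares within a family sum to 100%, so they are not independent. How reads shared between near-identical copies were counted is not given in the sources used here, so the values of single LHCB1 and LHCB2 copies are uncertain. Summed over copies, LHCB1 had 34644 and 49744 FPKM in the labelled mutants, against 52505 and 45538 FPKM in wild type (log2 change −0.24, SE 0.28, adjusted p = 0.721). LHCB2 summed to 4609 and 7587 FPKM in the labelled mutants, against 7094 and 7362 FPKM in wild type (log2 change −0.29, SE 0.27, adjusted p = 0.633).

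**Figure D3:**
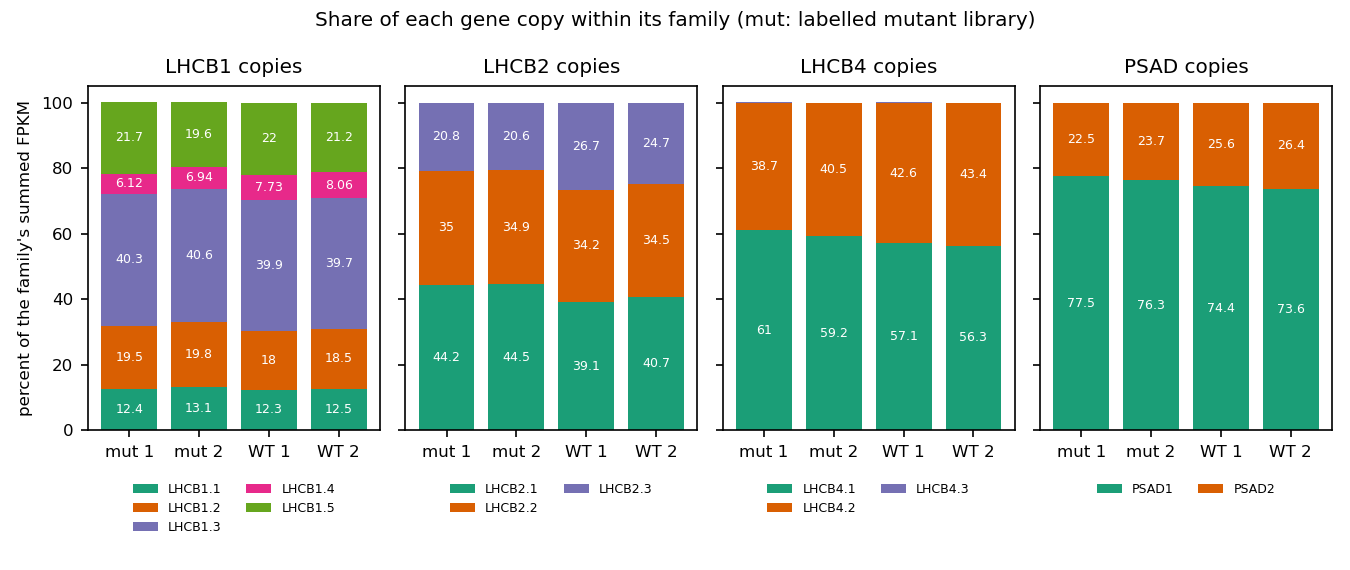
Stacked bars of the percent of summed FPKM that each gene copy supplies within the LHCB1, LHCB2, LHCB4 and PSAD families, 1 bar per library with the labelled mutants (mut) left of wild type (WT). The LHCB2.3 segment is 20.8 and 20.6 in the labelled mutants, against 26.7 and 24.7 in wild type, and the PSAD2 segment is 22.5 and 23.7 against 25.6 and 26.4.

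Markers of root cell types differed between the libraries. The 17 root hair and root endodermis markers, which include the Casparian strip genes CASP1 to CASP5, summed to 164 and 109 FPKM in the labelled mutants, against 80.3 and 118 FPKM in wild type. Labelled mutant library 1 was the highest library in 16 of the 17 root markers, where it was highest in 19.7% of tested loci, and it was the lowest in 41 of the 42 antenna and photosystem genes. Wild-type library 1 was the lowest in 14 of the 17, against 32.3% of tested loci. None of the 17 was at 0 in any library, none was called (smallest adjusted p 0.171), and their median log2 change was 0.34. Without labelled mutant library 1 the root hair median was 0.17, against 0.42 with it, and the endodermis median was 0.10, against 0.28 with it. CASP4 passed without labelled mutant library 2 (log2 change 1.36, adjusted p = 0.0239), and PRP3 without wild-type library 2 (log2 change 0.92, adjusted p = 0.0459). The part of the root markers in the result was not tested.

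The 8 markers of green tissue outside the photosystems, which are the small subunits of Rubisco (RBCS), Rubisco activase, GAPA1, GAPB and carbonic anhydrase CA1, had a median log2 change of −0.07. They summed to 25702 and 31228 FPKM in the labelled mutants, against 29128 and 28616 FPKM in wild type. Their median was −0.24 between the libraries numbered 1, where the 42 genes had −0.50, and 0.15 between the libraries numbered 2, where the 42 genes had 0.02. The summed FPKM of the 42 genes over that of the green tissue markers was 4.52 and 5.00 in the labelled mutants, against 5.71 and 5.26 in wild type, so both labelled mutant libraries were lower by this ratio. In labelled mutant library 2 the green tissue markers themselves summed above both wild-type libraries. For LHCA the ratio was 0.530 and 0.623 in the labelled mutants, against 0.694 and 0.693 in wild type. For photosystem I it was 0.925 and 0.919 in the labelled mutants, against 1.12 and 1.01 in wild type. RBCS2B, at 3264 and 4000 FPKM in the labelled mutants and 2938 and 3133 FPKM in wild type, was the green tissue marker that stood higher in both labelled mutants (log2 change 0.25, SE 0.20, adjusted p = 0.574). RBCS3B was lower in both, with 4261 and 5207 FPKM in the labelled mutants, against 5408 and 5229 FPKM in wild type. So was RCA (Rubisco activase), with 3511 and 4212 FPKM, against 4215 and 4257 FPKM. Of the 8 markers, 5 lay below 0 and 3 above. Without overlap, 1 was higher (12.5%) and 2 lower (25%), against 24.2% and 25.1% of tested loci. The ratios to the green tissue markers were computed after the values were seen.

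**Figure D4:**
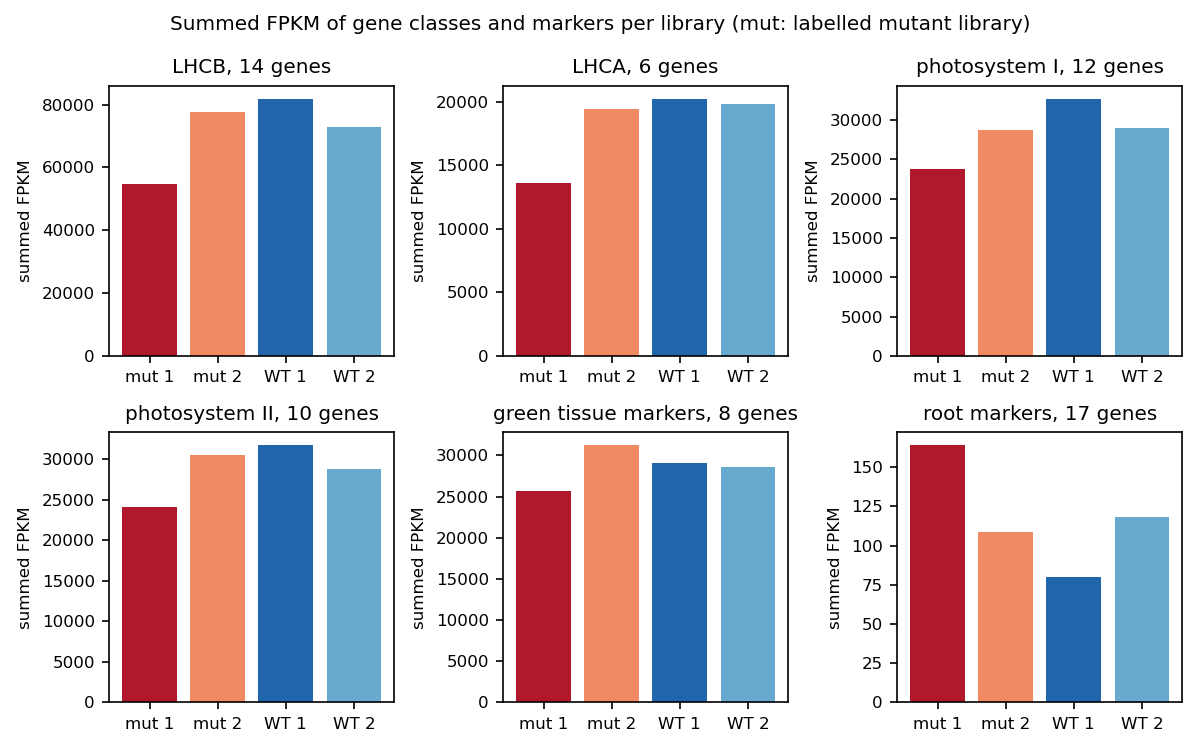
Summed FPKM per library (bars from 0) of the LHCB, LHCA, photosystem I and photosystem II genes and of the green tissue and root markers, with the labelled mutants (mut) left of wild type (WT). Labelled mutant library 1 is lowest in the 4 photosynthesis panels and in green tissue markers (25702 FPKM), and highest in root markers (164 FPKM).

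Other genes of the photosynthetic apparatus were read from 4 lists of 58 genes, of which none passed the threshold in either direction. In the 14 genes of electron transport and ATP synthase, 13 lay below 0 and the median log2 change was −0.14 (6 below 0 and a median of 0.02 without labelled mutant library 1). The genes of smallest p were PGRL1B (AT4G11960), a component of cyclic electron flow, and PETE1 (AT1G76100), a plastocyanin. PGRL1B had 37.0 and 40.1 FPKM in the labelled mutants, against 57.7 and 48.8 FPKM in wild type (log2 change −0.45, SE 0.13, adjusted p = 0.156). PETE1 had 266 and 363 FPKM in the labelled mutants, against 420 and 381 FPKM in wild type (adjusted p = 0.360). The gene above 0 was FD1 (AT1G10960), the minor leaf ferredoxin, with 881 and 945 FPKM in the labelled mutants and 759 and 716 FPKM in wild type (log2 change 0.31, SE 0.16, adjusted p = 0.379), named after its values were seen.

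In the 15 LHC-like, thylakoid and state-transition genes, 10 lay below 0 and 5 above, with a median of −0.13 (6 below 0 and a median of 0.11 without labelled mutant library 1). ELIP1 and ELIP2 encode early light-induced proteins, relatives of the antenna proteins that are made under light stress. ELIP2 (AT4G14690) had 22.2 and 22.9 FPKM in the labelled mutants, against 11.8 and 16.1 FPKM in wild type (log2 change 0.67, SE 0.15, 95% interval 0.32 to 1.02, adjusted p = 0.0985). Its log2 change was 0.88 without wild-type library 2 and 0.46 without wild-type library 1. With rRNA loci left out of equal column sums, ELIP2 passed at a log2 change of 0.62 (adjusted p = 0.0492). It did not pass with plain equal sums (adjusted p = 0.0515) or with quantile normalization (adjusted p = 0.0859). ELIP1 (AT3G22840), named after its values were seen, had 37.1 and 34.4 FPKM in the labelled mutants, against 27.1 and 25.9 FPKM in wild type (adjusted p = 0.144). In ELIP1 and ELIP2 the labelled mutant libraries were close to each other and above both wild-type libraries. Without overlap, 2 of the 15 genes were higher (13.3%) and 4 lower (26.7%), against 24.2% and 25.1% of tested loci. The 4 lower genes included LHCB7. TAP38 (AT4G27800), the phosphatase that dephosphorylates LHCII in state transitions, had 78.4 and 85.1 FPKM in the labelled mutants, against 115 and 116 FPKM in wild type. Its log2 change was −0.50 (SE 0.13, adjusted p = 0.123), and it passed when columns were scaled to equal sums (adjusted p = 0.0168).

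All 11 factors of antenna import and photosystem assembly lay below 0, with a median of −0.10 (4 below 0 and a median of 0.09 without labelled mutant library 1). CPSRP54 (AT5G03940), a subunit of the particle that carries antenna proteins to the thylakoid, had 73.5 and 90.7 FPKM in the labelled mutants, against 99.1 and 99.4 FPKM in wild type (adjusted p = 0.367). ALB3 (AT2G28800), the thylakoid insertase of antenna proteins, had 216 and 214 FPKM in the labelled mutants, against 276 and 241 FPKM in wild type (adjusted p = 0.403). In both the groups did not overlap. They were the only 2 of the 11 factors without overlap (18.2%), where 25.1% of tested loci were lower without overlap. Among 18 regulators, 13 lay below 0 and the median was −0.12 (11 and −0.05 without labelled mutant library 1). Without overlap, 8 of the 18 were lower (44.4%) and 3 higher (16.7%), against 25.1% and 24.2% of tested loci. The 3 higher genes were GNL, BBX21 and SIG5. The 8 lower genes included BBX22, whose log2 change was only −0.01. PIF4 (AT2G43010), a phytochrome-interacting transcription factor, had 36.4 and 38.5 FPKM in the labelled mutants, against 49.9 and 48.3 FPKM in wild type (log2 change −0.38, SE 0.12, adjusted p = 0.170). SIG1 (AT1G64860), a sigma factor of the plastid RNA polymerase, had 39.6 and 44.3 FPKM in the labelled mutants, against 57.8 and 51.9 FPKM in wild type (log2 change −0.38, SE 0.13, adjusted p = 0.200). The GLK1 and GLK2 transcription factors, activators of antenna genes, were named after their values were seen. GLK1 had 98.8 and 142 FPKM in the labelled mutants, against 141 and 139 FPKM in wild type, and GLK2 had 103 and 161 FPKM in the labelled mutants, against 123 and 138 FPKM in wild type. Both GLK genes were lowest in labelled mutant library 1 and highest in library 2, an order that 4 of the 14 LHCB genes shared (28.6%). Over all tested loci, labelled mutant library 2 was highest in 33.7%. In the other 10 LHCB genes wild-type library 1 was highest (71.4%).

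**Figure D5:**
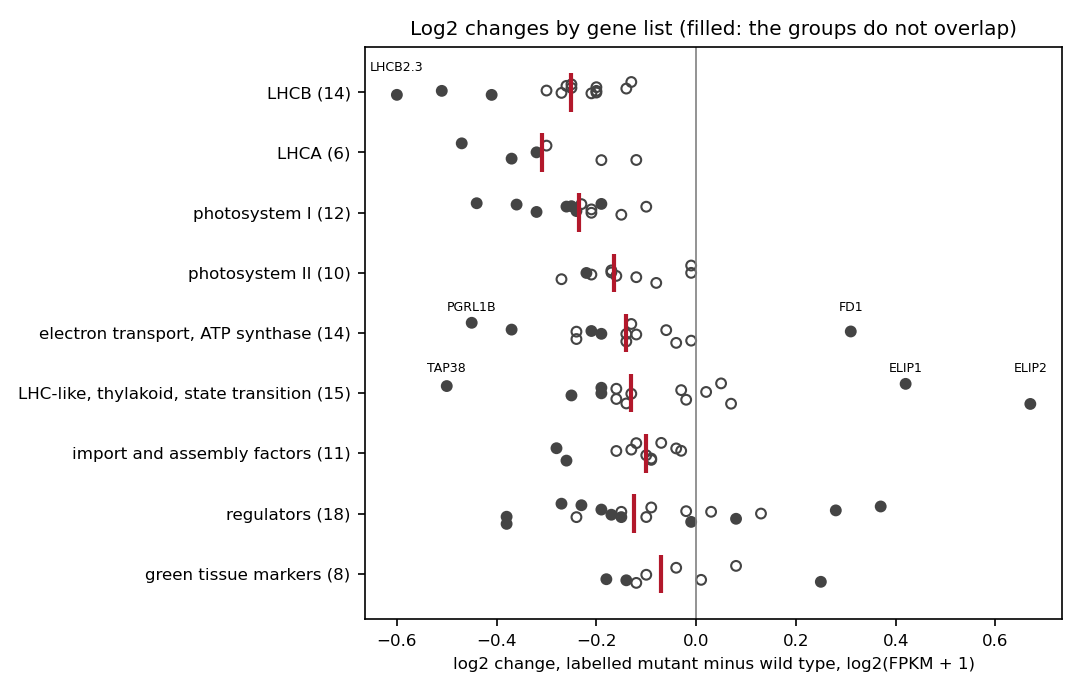
Log2 changes (labelled mutant minus wild type, log2(FPKM + 1)) of the 42 antenna and photosystem genes by class, of 4 other photosynthesis lists and of the green tissue markers, 1 point per gene with red lines at the medians; filled points are genes whose groups do not overlap. The 42 genes all lie left of 0 (34 of them with quantile normalization), and ELIP2 at 0.67 and ELIP1 at 0.42 lie farthest right.

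The count of member calls differed with the library left out and with the scaling. A fit without 1 library leaves 1 sample in its genotype, which is assumed to vary like the 2 libraries of the other genotype. Without labelled mutant library 2, 4 members were called lower in the limma fit: LHCB1.4, LHCB2.3, LHCA6 and PSAD2, with log2 changes of −0.86, −0.95, −0.68 and −0.66, where 0.768% of tested loci were called lower. Without labelled mutant library 1 no member was called, where 0.708% of tested loci were called lower, and the class medians were −0.04 for LHCB, −0.07 for LHCA, −0.11 for photosystem I and 0.05 for photosystem II. With columns scaled to equal sums, 3 members were called lower (LHCB2.3, LHCA6 and PSAD2, adjusted p = 0.0400, 0.0258 and 0.0316), where 1.37% of tested loci were called lower. When rRNA loci were left out of those sums, LHCB4.2 joined them (adjusted p = 0.0486), where 1.43% were called lower. With quantile normalization PSAD2 alone was called (adjusted p = 0.0471), where 0.472% were called lower. LHCB2.1, LHCB6, PSAD1, PSAG, PSBS, PSBW and PSBX lay above 0 in that fit. LHCB1.3 (0.00) and LHCB1.1 (−0.00) lay at 0 after rounding, and LHCB1.1 is counted among the 34 genes below 0.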

How the data were processed

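The deposited table gives FPKM per locus and library, scaled by the authors to transcript length and mapped fragments, per the file headers. Per the labels' protocols, RNA was taken with Trizol and sequenced from TruSeq libraries. The submitters' processing notes name TAIR10, TopHat, Bowtie2 and bedtools with no role. The program behind the FPKM values, its gene models and its use of strand: not given in the sources used here.

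Columns were matched to libraries by genotype abbreviation and number. Of 33278 loci, the 19917 with at least 1 FPKM in at least 2 libraries were fitted with limma (3.58.1, R 4.3.3) on log2(FPKM + 1), with trend and robust moderation and genotype as the only term. The scale understates changes of weakly expressed genes. Adjusted p-values are Benjamini-Hochberg over all tested loci, two-sided, with a threshold of 0.05. The fit was tested on simulated data with independent noise per locus and library, so a shift shared by many loci was not covered. Symbols and gene order came from RefSeq TAIR10.1 (98.6% of loci matched), and no coordinates are printed because the build name differs.

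Members and lists were chosen with earlier results of these data known. Named genes are, per class, the 3 of highest level and the 3 of smallest p, the LHCB1 and LHCB2 copies, and in other lists the 2 of smallest p; others were picked from the 42 members or after their values were seen. Alternatives covered scaling, filter, pseudocount, moderation, gene span, a replicate block, a stricter threshold and each library left out.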

Additional observations from a re-analysis of the deposited data

How the results depend on the processing

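The count of 0 members called in limma was also 0 with a threshold of 0.01, another filter, no filter, a pseudocount of 0.1, median-of-ratios scaling, no trend or robust moderation, the trend on gene span removed and copies summed. It was 1 with quantile normalization (PSAD2), 3 with columns scaled to equal sums and 4 when rRNA loci were left out of the sums, all lower. Leaving out each library in turn gave 0 to 4 calls. Over the same 4 fits the class medians ran from −0.49 to −0.18 for LHCB, −0.55 to −0.29 for LHCA, −0.38 to −0.11 for photosystem I and −0.27 to −0.04 for photosystem II, except without labelled mutant library 1, which gave −0.04, −0.07, −0.11 and 0.05. Quantile normalization gave medians of −0.09, −0.17, −0.07 and −0.08, and removal of the trend on gene span gave −0.34, −0.39, −0.37 and −0.25; the cause was not tested.

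The labels do not say that equal numbers mark a shared batch, and with 2 pairs the correlation of deviations (0.168) cannot settle a pairing. With a replicate block 0 members were called (smallest adjusted p 0.105), ELIP2 passed (log2 change 0.67, adjusted p = 0.0386), and over all loci 260 were higher and 172 lower, against 121 and 110 without it. Higher and lower loci numbered 320 and 274 with equal sums, 333 and 285 with rRNA loci also left out, 69 and 66 without trend and robust moderation, 19 and 20 with no filter, and 31 and 26 at 0.01. Leaving out wild-type library 2 gave 364 higher loci, and leaving out labelled mutant library 1 gave 271. Depth is unknown, and 2 libraries per genotype limit the precision.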
